A study of Homo sapiens with 9 samples.

Results

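Lysosomal hydrolases, lysosomal membrane proteins and their regulators were examined in SKOV3, a human cell line established from an ovarian tumour, given 1 of 2 acetylated amino sugars or nothing. The list held 43 genes, and a gene counted as measured where a probe set was annotated to it and to no other gene. By that rule 36 of the 43 were measured, each by 1 probe set, among the 17859 probe sets of the series. IDUA, IDS, GLB1, SUMF1, CTSD and CTSL (6 genes) stood only on probe sets that name several genes, and no probe set was listed for AGA, so these 7 were not analysed here.

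RNA came from 9 culture flasks, 3 in each group, and 1 array was run per flask. Cells had Ac-4-deoxy-GlcNAc at 50 µM, Ac-GlcNAc at 50 µM, or no compound, all for 3 days. Ac-GlcNAc is N-acetylglucosamine with its hydroxyl groups acetylated, which lets the sugar cross the cell membrane. Ac-4-deoxy-GlcNAc is the same sugar without the hydroxyl group at carbon 4. All flasks came from 1 cell line, and p-values measure the spread between flasks of that line. The labels name no vehicle given to untreated cells.

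The lysosome is the acidic compartment in which cells break down glycosaminoglycans, glycoproteins, lipids and proteins. Glycosaminoglycans such as heparan sulfate and chondroitin sulfate are taken apart from the chain end by sulfatases, glycosidases and 1 acetyltransferase acting in turn, and GlcNAc is among the sugars set free. TFEB and TFE3 are transcription factors that move to the nucleus under starvation or lysosomal stress and switch on many lysosomal genes through a short palindrome in their promoters, known as the CLEAR element.

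That palindrome is the sequence feature these genes are best known to share, so it was looked for in the RefSeq promoter windows (GRCh38.p14), each reaching from 250 bases before to 50 bases after a gene's start. Of the 43 genes, 33 had a window. The full palindrome, CACGTG with GT directly before and AC directly after it, reads the same on both strands and stood in the windows of 3 of them (9.09%), GAA, GALNS and MCOLN1, against 0.421% of the 27305 genes with a window. The core CACGTG alone, known as an E-box, is also its own reverse complement. It stood in 10 of 33 (30.3%), against 8.77% of all genes. The 250 bases before the start are shown for the 3 genes that hold the palindrome, and for FUCA1, which holds neither motif and fell the most among the members. Capitals mark the full palindrome, and all 4 run 5′ to 3′ on the strand of the gene.
GAA, chr17:80101331-80101580, strand +: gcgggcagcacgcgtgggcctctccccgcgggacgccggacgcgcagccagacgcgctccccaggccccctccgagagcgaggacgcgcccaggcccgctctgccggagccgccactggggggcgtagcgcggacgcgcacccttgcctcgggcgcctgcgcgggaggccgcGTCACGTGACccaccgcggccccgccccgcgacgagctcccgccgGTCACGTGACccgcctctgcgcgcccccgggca
GALNS, chr16:88856948-88857197, strand -: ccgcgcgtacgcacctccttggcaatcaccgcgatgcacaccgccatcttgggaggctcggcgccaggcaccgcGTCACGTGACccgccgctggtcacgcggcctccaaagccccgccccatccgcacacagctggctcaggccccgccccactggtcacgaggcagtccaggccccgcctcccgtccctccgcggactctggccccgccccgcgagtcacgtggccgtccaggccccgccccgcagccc
MCOLN1, chr19:7522374-7522623, strand +: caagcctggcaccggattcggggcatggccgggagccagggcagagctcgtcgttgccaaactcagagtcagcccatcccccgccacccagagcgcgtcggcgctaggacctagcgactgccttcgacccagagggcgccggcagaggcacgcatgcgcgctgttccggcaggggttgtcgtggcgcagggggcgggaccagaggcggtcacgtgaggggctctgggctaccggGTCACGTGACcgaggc
FUCA1, chr1:23868291-23868540, strand -: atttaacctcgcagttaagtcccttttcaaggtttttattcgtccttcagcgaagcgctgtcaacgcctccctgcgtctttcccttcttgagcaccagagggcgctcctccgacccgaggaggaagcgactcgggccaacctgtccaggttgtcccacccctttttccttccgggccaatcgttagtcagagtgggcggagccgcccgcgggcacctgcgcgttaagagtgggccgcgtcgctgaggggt
The GAA window held the palindrome at 2 places, with first bases 78 and 33 bases before the start. In GALNS it began 176 bases before the start and in MCOLN1 16 bases before it. A match describes the letters only.

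Of the arrays, medians lay between 6.58 and 6.65 log2 units and correlations with the other arrays averaged 0.987 to 0.994. Untreated replicate 2 stood apart, since its values were less widely spread (SD 1.92, where the other 8 arrays had 2.07 to 2.18). No batch is given in the labels, so none could be tested. Of 11 epithelial and ovarian tumour markers 10 were measured, with ERBB2 at 12.22, 12.29 and 12.22 log2 units in Ac-4-deoxy-GlcNAc, Ac-GlcNAc and untreated cells and KRT8 at 11.10, 11.04 and 11.19. The lowest of the 10 was WT1, at 5.79, 5.63 and 5.68 in the same order. Group means of the 5 fibroblast markers ran from 4.15 to 7.18, the highest being LUM, and those of the 3 endothelial markers from 4.42 to 5.73. Means of the 5 measured leukocyte and macrophage markers lay between 3.82 and 5.24 over all groups, and none of the 5 was called in a comparison. With Ac-4-deoxy-GlcNAc against untreated, CDH1 rose by 0.45 log2 units among the 10 epithelial markers, and KRT19, KRT7 and MUC1 fell by 0.49, 0.46 and 0.72. MUC1 also fell with Ac-GlcNAc (-0.55, adjusted p = 0.0299 in limma), and CDH1 was also called higher between the compounds, in Ac-4-deoxy-GlcNAc cells (0.55, adjusted p = 0.0112). Of 3 endothelial markers PECAM1 rose with Ac-4-deoxy-GlcNAc (0.41, adjusted p = 0.0178), and of 5 fibroblast markers LUM fell (-0.46, adjusted p = 0.0474). No other marker was called, and the part of these genes in the results was not tested. A probe set's level cannot be set against another's, and signal over background is not known here. In such bulk RNA, fewer cells of a kind and less RNA per cell cannot be told apart.

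Of the 36 measured genes 4 fell with Ac-4-deoxy-GlcNAc relative to untreated: the fucosidase FUCA1, the acid glucosidase GAA, the sulfatase-factor paralog SUMF2 and the transcription factor TFEB. None rose, and 32 did not pass. The share called, 11.1%, was close to the 11.0% of all probe sets called in that comparison (5.38% higher and 5.64% lower). Above the median of mean level, where 33 of the 36 lay, 12.1% of members were called (0 higher, 4 lower: SUMF2, GAA, ARSA and FUCA1). At that level 18.8% of 8929 probe sets were called (1128 higher, 553 lower), a larger share than among the members. With cyclic loess and quantile normalization the members' share was 22.2% and 19.4%, beside 12.7% and 12.3% of all probe sets. With Ac-GlcNAc, 0 of 36 passed, beside 0.442% of all probe sets (0.207% higher and 0.235% lower). Between the compounds FUCA1 alone passed, lower with Ac-4-deoxy-GlcNAc, which is 2.78% of the members beside 2.38% of all probe sets (0.896% higher and 1.48% lower). A gene was called at an adjusted p under 0.05 in a limma fit over all 9 arrays, adjusted over all 17859 probe sets by Benjamini-Hochberg.

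**Figure D1:**
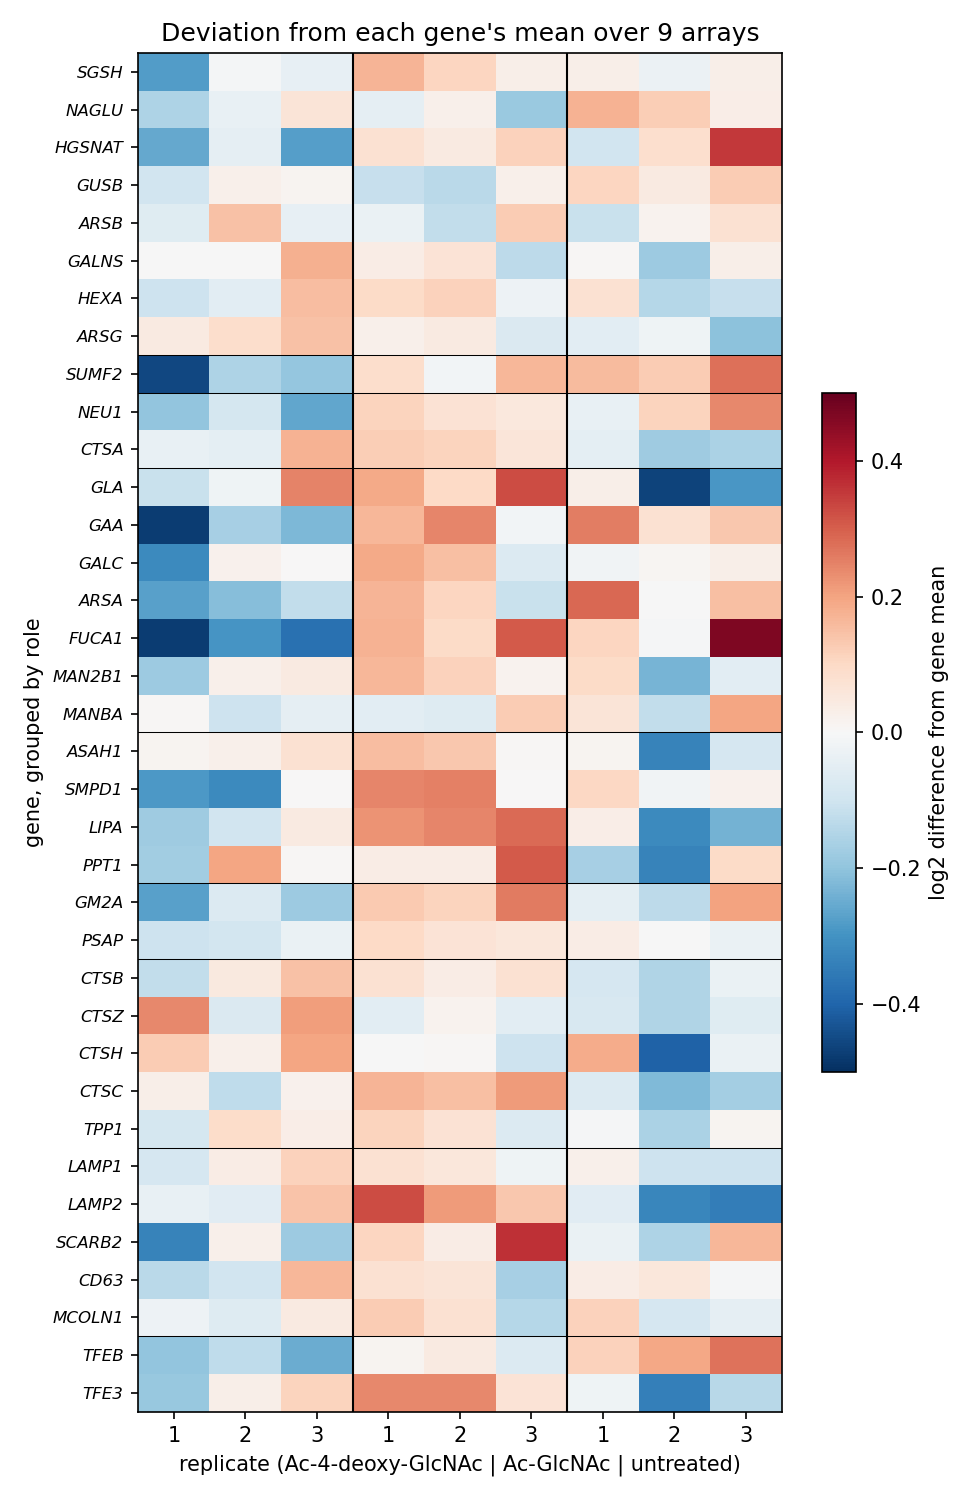
Each cell shows how far an array lies from its gene's mean over the 9 arrays (log2 units, blue lower and red higher), with 1 row per measured gene, rows grouped by role and columns by group. FUCA1, GAA, SUMF2 and TFEB are low on the 3 Ac-4-deoxy-GlcNAc arrays, and deviations over all 36 genes run from -0.47 to 0.47.

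None of the 8 measured members that degrade glycosaminoglycans, of 11 listed, passed in a comparison on the deposited scale. HYAL2, a hyaluronidase outside the member list, did fall and is described with the further list. The heparanase HPSE of that list was not called. It differed from untreated by -0.01 with Ac-4-deoxy-GlcNAc and 0.20 with Ac-GlcNAc, and by -0.22 between the compounds. Of the members, 0 of 8 was called with Ac-4-deoxy-GlcNAc, with Ac-GlcNAc or between the compounds, beside 11.0%, 0.442% and 2.38% of all probe sets. At those shares 8 genes are too few for 0 calls to say much. At an unadjusted p under 0.05 there were 1, 0 and 2 (12.5%, 0% and 25%), beside 31.2%, 26.4% and 13.6% of all probe sets. All 8 intervals (95%) lay inside a 1.5-fold change either way in all 3 comparisons, as did 80.3%, 84.0% and 90.9% of those of all probe sets. Median log2 differences over the 8 were -0.0427 with Ac-4-deoxy-GlcNAc, 0.0194 with Ac-GlcNAc and 0.0242 between the compounds. With cyclic loess they were -0.09, -0.08 and 0.06, and with quantile normalization -0.09, -0.08 and 0.07. In both, 6 of 8 lay below 0 with either compound against untreated. Array SD in the model gave -0.09, -0.04 and 0.03, so the direction with Ac-GlcNAc depended on scaling.

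SGSH, which takes the sulfate off the nitrogen of glucosamine, averaged 8.31 ± 0.15 log2 units in Ac-4-deoxy-GlcNAc cells, 8.52 ± 0.07 in Ac-GlcNAc cells and 8.43 ± 0.03 in untreated cells (SD, n = 3 each). Its difference between the compounds was -0.21 (95% interval -0.42 to 0.00, adjusted p = 0.362 in limma). The 3 Ac-4-deoxy-GlcNAc arrays lay below the 3 Ac-GlcNAc arrays for SGSH without passing the test. NAGLU, which splits GlcNAc from the end of the chain, averaged 7.10 ± 0.11, 7.08 ± 0.11 and 7.25 ± 0.07 in Ac-4-deoxy-GlcNAc, Ac-GlcNAc and untreated cells (SD, n = 3 each). Its difference from untreated was -0.15 with Ac-4-deoxy-GlcNAc (95% interval -0.36 to 0.06) and -0.18 with Ac-GlcNAc (-0.39 to 0.03). The 3 Ac-GlcNAc arrays lay below the untreated ones for NAGLU without passing the test. HGSNAT, the membrane enzyme that acetylates glucosamine before NAGLU can act, had 10.22, 10.43 and 10.20 on Ac-4-deoxy-GlcNAc arrays, 10.55, 10.52 and 10.59 on Ac-GlcNAc arrays and 10.38, 10.56 and 10.83 on untreated arrays. Ac-4-deoxy-GlcNAc was below Ac-GlcNAc on every array for HGSNAT, while it overlapped with untreated replicate 1. Its log2 difference from untreated was -0.30 (SE 0.12, adjusted p = 0.101 in limma), and it passed with cyclic loess (-0.37, adjusted p = 0.0486) and without untreated replicate 1 (-0.41, adjusted p = 0.0352). ARSG, a sulfatase that acts on heparan sulfate, ran from 5.57 to 5.67 on Ac-4-deoxy-GlcNAc arrays, 5.45 to 5.57 on Ac-GlcNAc arrays and 5.32 to 5.50 on untreated arrays, so that Ac-4-deoxy-GlcNAc lay above untreated. Its difference from untreated was 0.19 (95% interval -0.01 to 0.38, adjusted p = 0.183), and of the settings tried it passed after cyclic loess and quantile normalization (0.28 in both, adjusted p = 0.0382 and 0.0396).

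The other enzymes act on several chains. GUSB, the beta-glucuronidase, averaged 7.95 ± 0.07, 7.89 ± 0.08 and 8.06 ± 0.04 in Ac-4-deoxy-GlcNAc, Ac-GlcNAc and untreated cells (SD, n = 3 each). Untreated arrays were above both treated groups for GUSB, with differences of -0.11 and -0.16 that did not pass (adjusted p = 0.434 and 0.259). ARSB, which desulfates N-acetylgalactosamine of dermatan and chondroitin sulfate, averaged 7.62 ± 0.11, 7.59 ± 0.13 and 7.60 ± 0.10 in the same order of groups, and its difference with Ac-4-deoxy-GlcNAc had an interval of -0.20 to 0.24. GALNS, a sulfatase for keratan and chondroitin sulfate, averaged 8.95 ± 0.10 with Ac-4-deoxy-GlcNAc, 8.88 ± 0.10 with Ac-GlcNAc and 8.84 ± 0.12 in untreated cells. HEXA, the alpha subunit of beta-hexosaminidase, averaged 8.46 ± 0.14, 8.52 ± 0.07 and 8.40 ± 0.12. The groups overlapped for ARSB, GALNS and HEXA.

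**Figure D2:**
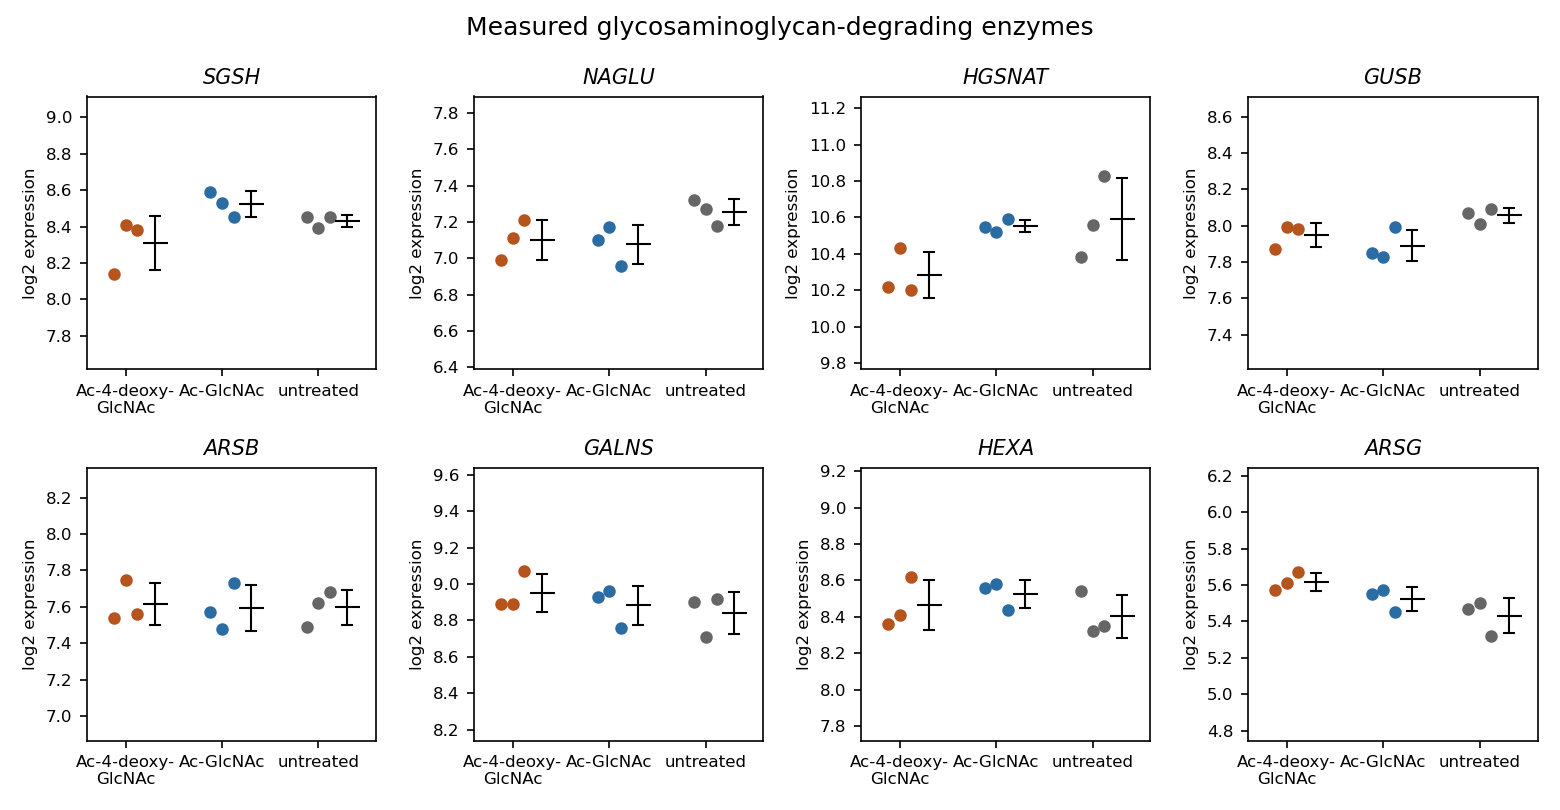
Log2 expression of the 8 measured glycosaminoglycan-degrading enzymes on each array (points), with the mean and SD of 3 arrays beside them. Every panel spans the same height of 1.5 log2 units, and GUSB is higher on the 3 untreated arrays than on the 6 treated ones.

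SUMF2 fell with Ac-4-deoxy-GlcNAc. It encodes a paralog of the enzyme that activates sulfatases in the endoplasmic reticulum, and that enzyme, SUMF1, was not measured. SUMF2 (probe set 3003228) had 10.42, 10.72 and 10.68 log2 units on Ac-4-deoxy-GlcNAc arrays, 10.96, 10.86 and 11.04 on Ac-GlcNAc arrays and 11.03, 11.00 and 11.15 on untreated arrays. The 3 Ac-4-deoxy-GlcNAc arrays lay below the other 6, and Ac-GlcNAc overlapped with untreated. The log2 difference between Ac-4-deoxy-GlcNAc and untreated was -0.45 (SE 0.10, adjusted p = 0.0174 in limma), a 1.37-fold fall. Leaving out Ac-4-deoxy-GlcNAc replicate 1 ended the call (-0.36, adjusted p = 0.0652), as did leaving out untreated replicate 3 (-0.41, adjusted p = 0.0515). Between the compounds it was -0.35 (95% interval -0.57 to -0.12, adjusted p = 0.113), which passed with trend and robust options (adjusted p = 0.0488) and in no other setting.

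The sialidase NEU1 and its partner CTSA, the protective protein that keeps it stable, were not called. NEU1 was at 7.61, 7.72 and 7.55 on Ac-4-deoxy-GlcNAc arrays, 7.92, 7.88 and 7.86 on Ac-GlcNAc arrays and 7.77, 7.92 and 8.05 on untreated arrays, a difference of -0.28 from untreated (SE 0.10, adjusted p = 0.0774 in limma). It was low on the 3 Ac-4-deoxy-GlcNAc arrays only, without overlap, and passed after cyclic loess, after quantile normalization and without untreated replicate 1. CTSA averaged 11.52 ± 0.12 with Ac-4-deoxy-GlcNAc, 11.59 ± 0.03 with Ac-GlcNAc and 11.36 ± 0.07 in untreated cells (SD, n = 3 each), and differed from untreated by 0.16 and 0.23.

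FUCA1 and GAA were the 2 of 7 measured glycoside and sulfate hydrolases outside glycosaminoglycan breakdown that fell with Ac-4-deoxy-GlcNAc. That is 28.6%, beside 11.0% of all probe sets called and 5.64% called lower, and 7 genes are too few to compare shares. FUCA1, which removes fucose from glycoproteins and glycolipids (probe set 2401643), had 7.00, 7.18 and 7.10 log2 units on Ac-4-deoxy-GlcNAc arrays, 7.65, 7.57 and 7.78 on Ac-GlcNAc arrays and 7.58, 7.47 and 7.94 on untreated arrays. The Ac-4-deoxy-GlcNAc arrays were the 3 lowest, and the other groups overlapped. Against untreated the log2 difference was -0.57 (SE 0.12, adjusted p = 0.0125 in limma), a 1.48-fold fall, and it was called in all 6 fits with 1 array left out (-0.66 to -0.43). Against Ac-GlcNAc it was also -0.57 (95% interval -0.83 to -0.31, adjusted p = 0.0253), lower on 3 of 3 arrays. With 1 array left out the difference stayed between -0.62 and -0.52, while the call was kept in 1 of 6 fits, the one without Ac-4-deoxy-GlcNAc replicate 2. In the 5 fits that lost it, 141 to 199 of all probe sets were called, against 425 with every array. Leaving out Ac-GlcNAc replicate 1, 2 or 3 gave -0.58, -0.62 and -0.52 (adjusted p = 0.0863, 0.065 and 0.124). Leaving out replicate 1 or 3 of the other group gave -0.52 and -0.57 (adjusted p = 0.109 and 0.0788). With Ac-GlcNAc itself FUCA1 differed from untreated by 0.01 (95% interval -0.26 to 0.27).

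GAA, the acid alpha-glucosidase that breaks down glycogen (probe set 3737140), had 7.24, 7.55 and 7.49 on Ac-4-deoxy-GlcNAc arrays, 7.88, 7.96 and 7.70 on Ac-GlcNAc arrays and 7.97, 7.79 and 7.85 on untreated arrays. All 3 Ac-4-deoxy-GlcNAc values were below the other 6. The difference from untreated was -0.44 log2 units (SE 0.11, adjusted p = 0.0249 in limma), a 1.35-fold fall. The call was lost when replicate 1 or 3 of Ac-4-deoxy-GlcNAc was left out (-0.34 and -0.47, adjusted p = 0.0839 and 0.065), with array SD in the model (-0.50, adjusted p = 0.0554) and on the 6 compared arrays alone (adjusted p = 0.0556). Against Ac-GlcNAc it was -0.42 (95% interval -0.65 to -0.18, adjusted p = 0.0664), which did not pass. It passed there in both filters on mean level and with array weights (adjusted p = 0.0412, 0.0293 and 0.00856).

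Among the rest of these hydrolases, ARSA, the sulfatase that acts on sulfatide, came nearest to the threshold. It averaged 8.66 ± 0.07 with Ac-4-deoxy-GlcNAc, 8.91 ± 0.15 with Ac-GlcNAc and 9.01 ± 0.14 in untreated cells (SD, n = 3 each), with a log2 difference of -0.35 from untreated (adjusted p = 0.0537 in limma) and no overlap of those groups. ARSA was called lower in 7 of the 10 other settings, namely cyclic loess, quantile normalization, median centring, both filters on mean level, array weights, and trend and robust options, and also without untreated replicate 2. GLA, the alpha-galactosidase, averaged 8.20 ± 0.19, 8.37 ± 0.12 and 7.92 ± 0.25 in Ac-4-deoxy-GlcNAc, Ac-GlcNAc and untreated cells. Its difference was 0.28 with Ac-4-deoxy-GlcNAc (95% interval -0.01 to 0.56) and 0.45 with Ac-GlcNAc (0.16 to 0.73, adjusted p = 0.0939), the last passing with array weights and without untreated replicate 1. Untreated replicate 2 was the lowest GLA array at 7.70, and replicate 1 at 8.19 lay within the Ac-4-deoxy-GlcNAc range. GALC, which cleaves galactosylceramide, and the mannosidases MAN2B1 and MANBA differed from untreated by -0.11 to 0.16 with either compound, none called. Against Ac-GlcNAc all 7 of these hydrolases were lower with Ac-4-deoxy-GlcNAc, by -0.57 to -0.05, also with cyclic loess, quantile normalization and median centring, and 6 of 7 with array SD in the model.

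None of the 4 lipid hydrolases was called. Over all probe sets 11.0%, 0.442% and 2.38% were called with Ac-4-deoxy-GlcNAc, with Ac-GlcNAc and between the compounds. LIPA, the acid lipase that frees cholesterol from its esters, had 7.40, 7.48 and 7.62 on Ac-4-deoxy-GlcNAc arrays, 7.80, 7.82 and 7.86 on Ac-GlcNAc arrays and 7.61, 7.26 and 7.34 on untreated arrays. The Ac-GlcNAc arrays were above all others, with a log2 difference of 0.42 from untreated (SE 0.11, adjusted p = 0.0827 in limma). LIPA passed in this comparison above the median of mean level, with array weights and without untreated replicate 1. SMPD1, acid sphingomyelinase, differed by -0.24 with Ac-4-deoxy-GlcNAc, by 0.13 with Ac-GlcNAc and by -0.37 between the compounds (95% interval -0.61 to -0.13, adjusted p = 0.116). The ceramidase ASAH1 and the thioesterase PPT1, which strips fatty acids from proteins, differed from untreated by 0.14 to 0.26. The lipid-presenting activators GM2A and PSAP differed by -0.18 and -0.08 with Ac-4-deoxy-GlcNAc and by 0.16 and 0.07 with Ac-GlcNAc.

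None of the 5 measured proteases was called, and all 5 had differences above 0 with both compounds, where cyclic loess left 4 above 0 with Ac-4-deoxy-GlcNAc and 2 with Ac-GlcNAc. These ran from 0.06 to 0.22 with Ac-4-deoxy-GlcNAc and from 0.05 to 0.33 with Ac-GlcNAc. CTSC, which activates serine proteases of immune granules, had 10.07, 9.91 and 10.06 on Ac-4-deoxy-GlcNAc arrays, 10.21, 10.19 and 10.25 on Ac-GlcNAc arrays and 9.97, 9.82 and 9.87 on untreated arrays. Ac-GlcNAc arrays did not overlap with either other group for CTSC, at 0.33 above untreated (95% interval 0.13 to 0.53, adjusted p = 0.0891 in limma), and it passed with array weights and without untreated replicate 1. CTSZ, a carboxypeptidase, averaged 9.09 ± 0.17, 8.94 ± 0.04 and 8.87 ± 0.05 in Ac-4-deoxy-GlcNAc, Ac-GlcNAc and untreated cells. For the aminopeptidase CTSH the untreated arrays spread the most, at 8.94, 8.35 and 8.72, with replicate 2 the lowest. CTSB and the tripeptidyl peptidase TPP1 differed from untreated by at most 0.15.

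All 5 lysosomal membrane proteins among the members were measured. None of the 5 passed, beside 11.0%, 0.442% and 2.38% of all probe sets in the 3 comparisons. LAMP1, an abundant glycoprotein of its membrane, averaged 10.85 ± 0.10, 10.86 ± 0.05 and 10.76 ± 0.07 in Ac-4-deoxy-GlcNAc, Ac-GlcNAc and untreated cells (SD, n = 3 each), with a difference of 0.09 for either compound (95% interval -0.11 to 0.29 in both). LAMP2, its relative with a part in autophagy, had 9.79, 9.77 and 9.97 on Ac-4-deoxy-GlcNAc arrays, 10.15, 10.04 and 9.96 on Ac-GlcNAc arrays and 9.77, 9.50 and 9.48 on untreated arrays. Both treated groups lay at or above the highest untreated array. The LAMP2 difference was 0.26 with Ac-4-deoxy-GlcNAc (SE 0.11, adjusted p = 0.119 in limma) and 0.47 with Ac-GlcNAc (SE 0.11, adjusted p = 0.0754), the lowest adjusted p of the 36 with Ac-GlcNAc. With Ac-GlcNAc it ranged from 0.35 to 0.53 over 10 other settings and passed in 3 of them, and in 1 of 6 fits with an array left out. SCARB2, the receptor that carries glucocerebrosidase to the lysosome, differed by -0.16, 0.17 and -0.33 with Ac-4-deoxy-GlcNAc, with Ac-GlcNAc and between the compounds. The tetraspanin CD63 and the calcium channel MCOLN1 differed by no more than 0.05 in size in any comparison.

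TFEB fell with Ac-4-deoxy-GlcNAc. It had 6.24, 6.31 and 6.19 log2 units on Ac-4-deoxy-GlcNAc arrays, 6.45, 6.48 and 6.37 on Ac-GlcNAc arrays and 6.55, 6.63 and 6.71 on untreated arrays (probe set 2953711). The 3 groups did not overlap, with Ac-GlcNAc between the others. The log2 difference from untreated was -0.38 with Ac-4-deoxy-GlcNAc (SE 0.09, adjusted p = 0.0211 in limma), a 1.30-fold fall, and -0.19 with Ac-GlcNAc (95% interval -0.39 to 0.00, adjusted p = 0.188). The first lost its call when untreated replicate 3 was left out (-0.34, adjusted p = 0.0611) and when replicate 1 or 3 of Ac-4-deoxy-GlcNAc was (-0.37 and -0.35, adjusted p = 0.0589 and 0.088). It was also lost with array SD in the model (-0.36, adjusted p = 0.0708) and on the 6 compared arrays (adjusted p = 0.0592). TFE3, its relative, did not pass, at 8.03, 8.25 and 8.33 on Ac-4-deoxy-GlcNAc arrays, 8.46, 8.46 and 8.29 on Ac-GlcNAc arrays and 8.20, 7.88 and 8.08 on untreated arrays. Its difference was 0.15 with Ac-4-deoxy-GlcNAc (adjusted p = 0.382) and 0.35 with Ac-GlcNAc (adjusted p = 0.104, and 0.0282 with array weights), and untreated replicate 2 was the lowest array.

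**Figure D3:**
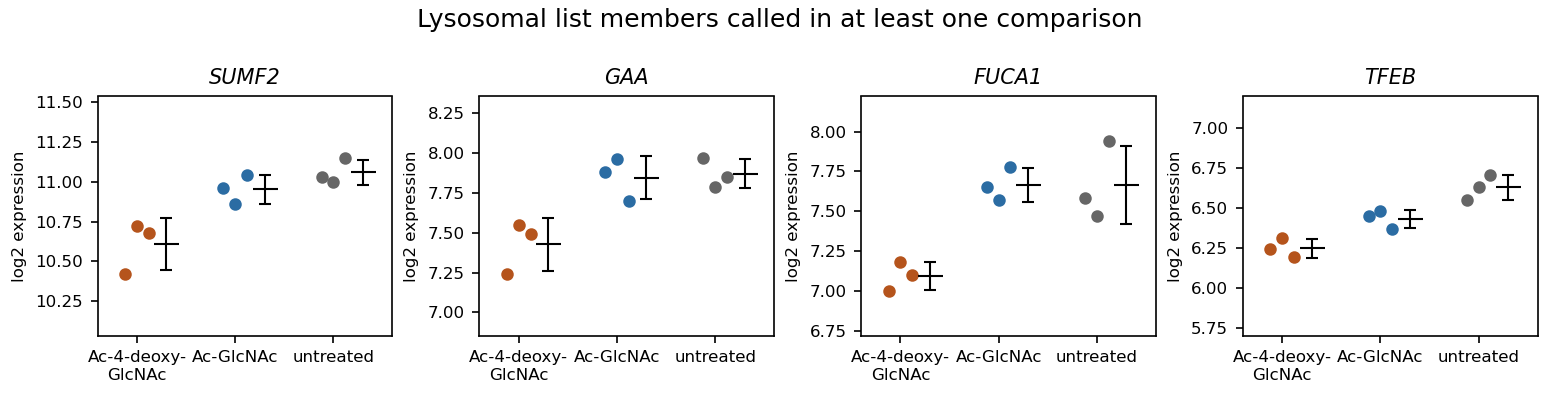
Log2 expression on each array (points) of the 4 members called with Ac-4-deoxy-GlcNAc against untreated, with mean and SD of 3 arrays beside them and panels of equal height (1.5 log2 units). The Ac-4-deoxy-GlcNAc arrays lie below the others in each panel, and TFEB on Ac-GlcNAc arrays lies between the other groups.

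Members were also set out by whether their window holds the E-box core. Of the 26 measured members with a promoter window, 8 held CACGTG, and with Ac-4-deoxy-GlcNAc 1 of these 8 was called lower, GAA, against 3 of 18 without it, FUCA1, SUMF2 and TFEB. Over all probe sets 11.0% were called in that comparison, and 5.64% were called lower. Such small counts cannot set the groups of genes apart. Median log2 differences from untreated were 0.005 with the core and 0.04 without it for Ac-4-deoxy-GlcNAc, and 0.01 and 0.11 for Ac-GlcNAc. Between the compounds the medians were -0.02 with the core and -0.185 without it, the widest gap of the 3 comparisons. GALNS and MCOLN1, which like GAA hold the full palindrome shown above, differed from untreated by 0.11 and -0.01 with Ac-4-deoxy-GlcNAc, beside -0.44 for GAA. No test was made between these groups of genes.

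Over the 36 members, differences with Ac-4-deoxy-GlcNAc were above 0 for 18 and below 0 for 18, with a median of 0.00668. With Ac-GlcNAc 25 were above 0, with a median of 0.086. Level moved with these figures: 33 of the 36 lay above the median level of all probe sets, and over probe sets above that level the median difference was 0.0541 with Ac-4-deoxy-GlcNAc and 0.101 with Ac-GlcNAc, against -0.0506 and -0.0171 over all probe sets. The direction of the Ac-GlcNAc median depended on scaling: it was -0.02 with cyclic loess, -0.03 with quantile normalization and -0.01 with array SD in the model, with 16 above 0 in each. With cyclic loess the Ac-4-deoxy-GlcNAc median was -0.04, with 15 above 0. At an unadjusted p under 0.05 there were 9 of 36 with Ac-4-deoxy-GlcNAc (25%, against 31.2% of all probe sets) and 8 with Ac-GlcNAc (22.2%, against 26.4%). Between the compounds there were 12 (33.3%, against 13.6%). The arrays did not overlap between Ac-4-deoxy-GlcNAc and untreated for 10 members, 2 higher and 8 lower, beside 13.0% and 19.1% of all probe sets. For Ac-GlcNAc and untreated that held for 12, 9 higher and 3 lower, beside 13.0% and 19.3%.

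Set against Ac-GlcNAc at the same dose and time, Ac-4-deoxy-GlcNAc gave lower values for 29 of the 36 members and higher ones for 7, with a median log2 difference of -0.142. Over all probe sets 49.1% were lower with a median of 0.00308, and over those above the median level 62.3% were lower with a median of -0.0458. The 7 above 0 were NAGLU, GUSB, ARSB, GALNS and ARSG among glycosaminoglycan-degrading enzymes and the proteases CTSZ and CTSH. On 13 members the 3 Ac-4-deoxy-GlcNAc arrays were below the 3 Ac-GlcNAc arrays and on 2 above, 41.7% in all, beside 21.2% of all probe sets (11.6% below and 9.56% above). The count below 0 was 23 to 26 with cyclic loess, quantile normalization, median centring or array SD in the model. The members' median stayed below 0 in each other setting and each fit with an array left out, from -0.16 to -0.07. Only FUCA1 passed the test of the difference between the compounds, and 32 of 36 intervals lay inside a 1.5-fold change. The exceptions were GAA, FUCA1, SMPD1 and SCARB2, all reaching past 1.5-fold lower.

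**Figure D4:**
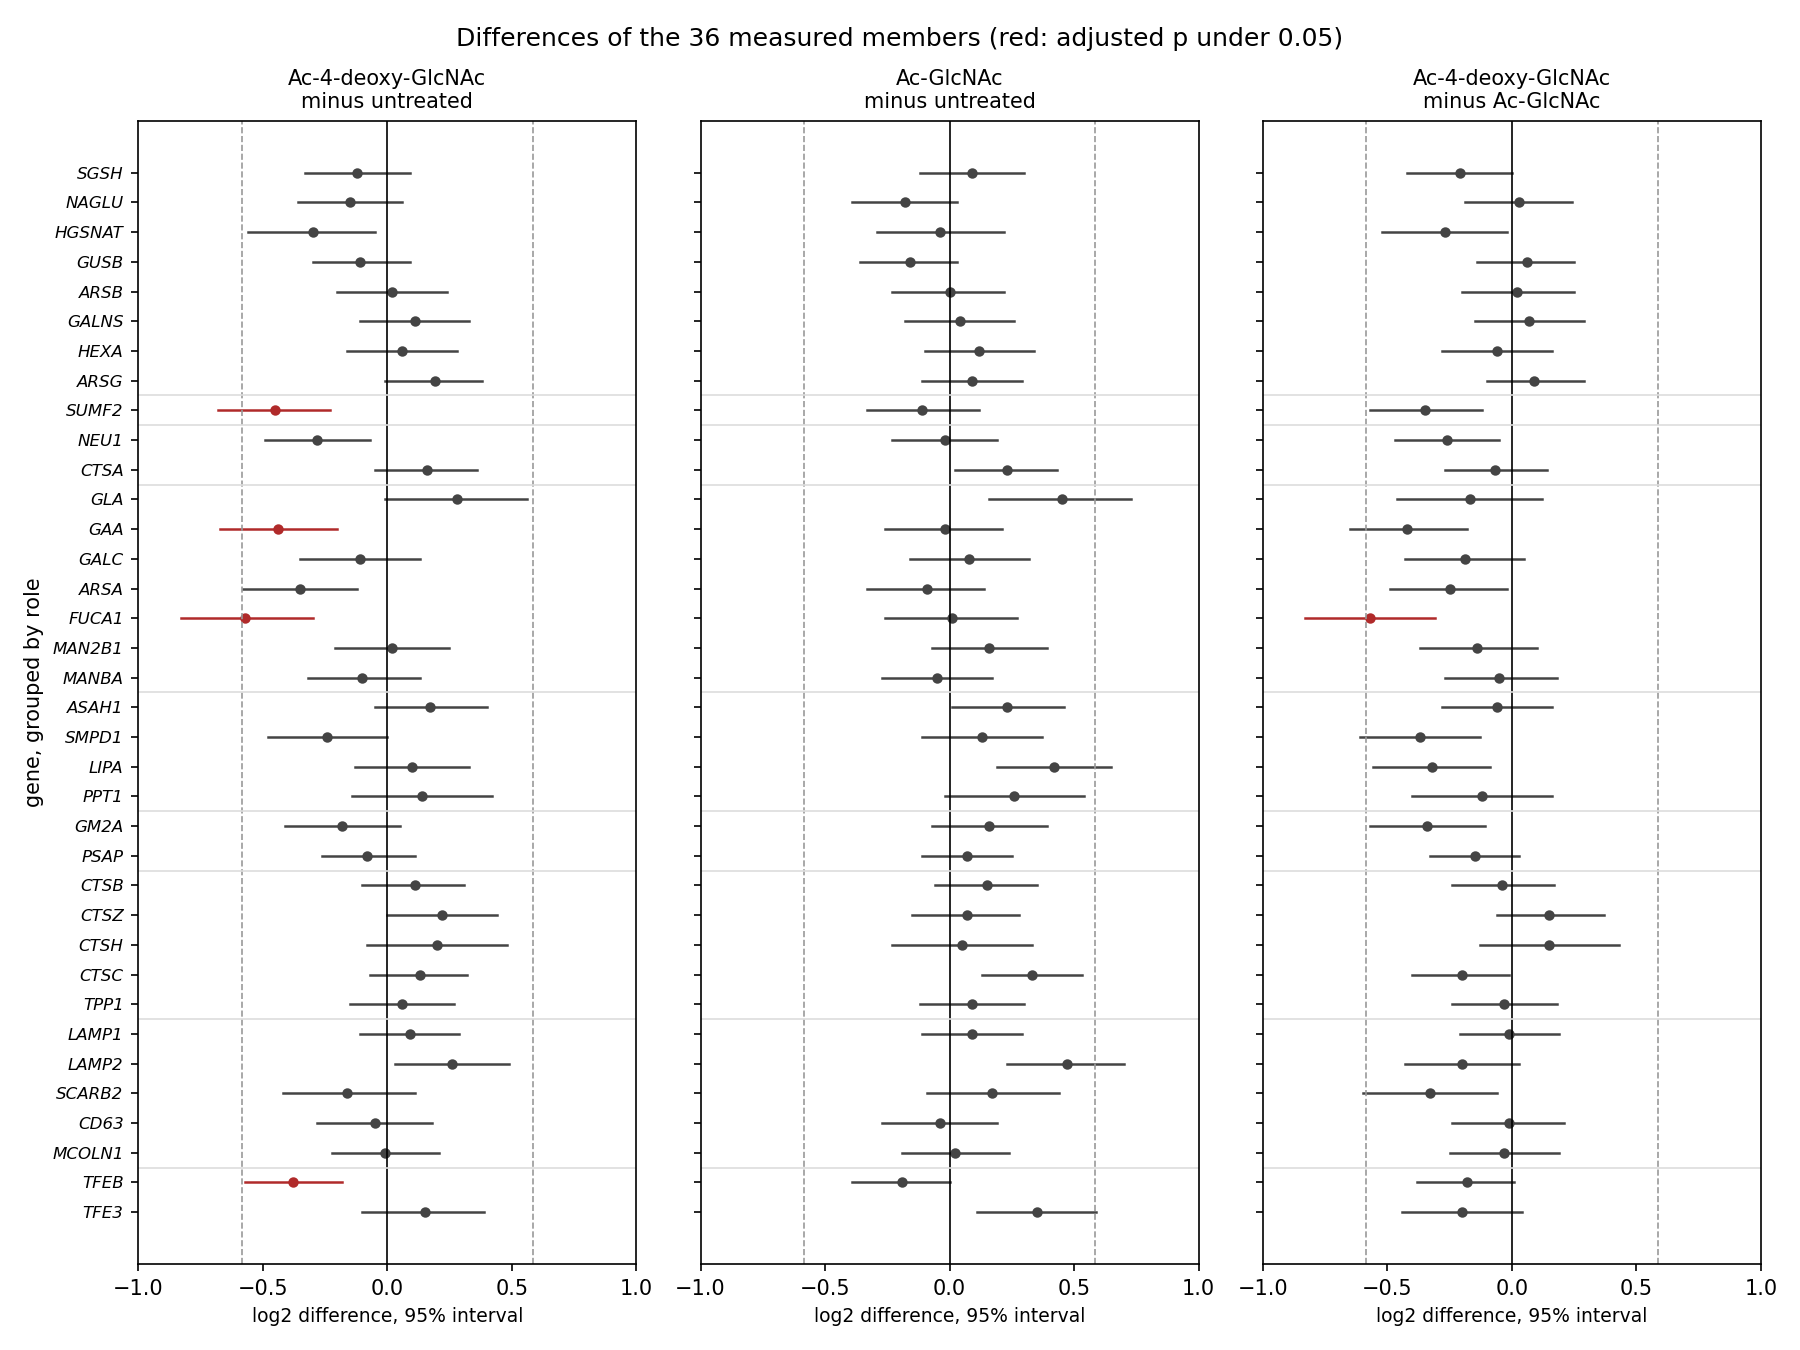
Log2 differences of the 36 measured members (points) with 95% intervals (lines) in the 3 comparisons, grouped by role; red marks an adjusted p under 0.05 and dashed lines a 1.5-fold change. Ac-4-deoxy-GlcNAc against untreated has 4 red entries, all lower, Ac-GlcNAc against untreated none, and the compound comparison 1, FUCA1.

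A further list of 79 lysosomal genes outside the members had 56 measured. With Ac-4-deoxy-GlcNAc against untreated 5 were lower, 2 higher and 49 not called, 12.5% called against 11.0% of all probe sets. With Ac-GlcNAc 0 of 56 were called, and between the compounds 3, all lower with Ac-4-deoxy-GlcNAc (5.36%, against 2.38%). The cysteine protease CTSF had 6.48, 6.83 and 6.94 on Ac-4-deoxy-GlcNAc arrays, 7.68, 7.80 and 7.49 on Ac-GlcNAc arrays and 7.67, 7.42 and 7.62 on untreated arrays. Its log2 difference was -0.82 from untreated (SE 0.13, adjusted p = 0.00298 in limma) and -0.91 from Ac-GlcNAc (SE 0.13, adjusted p = 0.00329). CTSO, another cysteine protease, had 6.18, 6.39 and 6.23 on Ac-4-deoxy-GlcNAc arrays, 6.94, 6.88 and 7.10 on Ac-GlcNAc arrays and 6.93, 6.90 and 7.22 on untreated arrays, with differences of -0.75 and -0.71 (SE 0.11 each, adjusted p = 0.00198 and 0.00519). For both proteases the Ac-4-deoxy-GlcNAc arrays lay below the other 6, and both calls held in all 6 fits with 1 array left out.

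SIAE, which takes acetyl groups off sialic acids, fell by 0.55 on the log2 scale with Ac-4-deoxy-GlcNAc against untreated (SE 0.11, adjusted p = 0.00854 in limma) and differed by -0.54 from Ac-GlcNAc (adjusted p = 0.0199), the second call being kept in 1 of 6 fits with an array left out (adjusted p up to 0.0969). HYAL2, a hyaluronidase, fell by 0.49 with Ac-4-deoxy-GlcNAc (SE 0.09, adjusted p = 0.00805) and differed by -0.26 with Ac-GlcNAc (95% interval -0.46 to -0.06, adjusted p = 0.124). NPC1, which exports cholesterol from the lysosome, rose by 0.49 with Ac-4-deoxy-GlcNAc (SE 0.09, adjusted p = 0.00546), at 10.57, 10.64 and 10.70 on Ac-4-deoxy-GlcNAc arrays, 10.48, 10.39 and 10.41 on Ac-GlcNAc arrays and 10.20, 10.10 and 10.15 on untreated arrays. The 3 groups did not overlap for NPC1, and Ac-GlcNAc lay between the others. The calls of SIAE, HYAL2 and NPC1 against untreated held in all 6 fits with an array left out. UVRAG, an autophagy and endosome gene, differed by 0.38 (adjusted p = 0.036), called in 1 of 6 such fits. CD68, a glycoprotein of the lysosomal membrane, differed by -0.37 (adjusted p = 0.0455) and was called in 0 of 6; it was named after its value was seen, to complete the count of 5.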

How the data were processed

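Total RNA from 9 flasks was labelled for arrays, 3 per group, with groups and replicate numbers taken from the sample titles. The authors' deposited values are log2 expression per probe set, made with RMA in Partek on build hg18 per the submitters' processing notes, with no versions or settings. Precision rests on 3 arrays per group, and log2 differences had a standard error of 0.110 at the median.

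The deposited values went into limma 3.58.1 under R 4.3.3 (lmFit, eBayes) with no further normalization, group as the only term, 9 arrays and 6 residual degrees of freedom. Each contrast was two-sided, with Benjamini-Hochberg adjustment over 17859 probe sets, and an adjusted p under 0.05 was called. Gene names came from the platform annotation, in which 14413 probe sets name 1 gene, 2405 several and 1041 none. For the further list, older symbols were updated by gene identifier through RefSeq (GRCh38.p14). The members and lists were chosen with earlier results of these data known. Named in full were members called in any contrast, the measured glycosaminoglycan-degrading enzymes, TFEB, TFE3, LAMP1 and LAMP2, and up to 6 called genes of the further list per contrast by size. Values of other members illustrate their groups and were picked after they were seen.

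The fit was tested on simulated data with independent noise for each probe set and no scale differences between arrays. That test therefore does not bear on how calls depend on scaling. Other settings tried were a replicate block, normalization by cyclic loess, quantiles or array medians, keeping probe sets above the 25th percentile or above the median of mean level, array weights, array SD as a covariate, trend and robust options, the compared arrays alone and leaving out each array. All 36 measured members passed the first filter and 33 the second.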

Additional observations from a re-analysis of the deposited data

How the results depend on the processing

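With Ac-4-deoxy-GlcNAc against untreated 4 were called, and 8 with cyclic loess (1 higher, 7 lower; 22.2% of members, beside 12.7% of all probe sets), 7 with quantile normalization (1 higher, 6 lower; 19.4% beside 12.3%), 2 with array SD as a covariate, 2 on the compared arrays alone and 1 to 8 with an array left out, while all probe sets called were 1968, and 596 with the SD covariate, 818 on the compared arrays alone and 604 to 3076 with an array left out. Above the 25th percentile of mean level 5 members were called (13.9%, beside 15.3% of probe sets). Above the median of mean level it was 4 (12.1%, beside 18.8%). The single call without an array was FUCA1, without Ac-4-deoxy-GlcNAc replicate 1. Leaving out untreated replicate 1 gave 8, and untreated replicate 3 or Ac-4-deoxy-GlcNAc replicate 3 gave 2. With Ac-GlcNAc against untreated 0 were called, and 2 above the median level, 5 with array weights, 1 with trend and robust options and 0 to 4 with an array left out, the 4 (GLA, LIPA, CTSC and LAMP2, all higher) without untreated replicate 1. For all probe sets that count was 79, and 324 with the replicate block, 47 with cyclic loess, 36 with quantile normalization, 32 with median centring (19 higher and 13 lower, against 37 and 42), 154 above the median level, 1760 with array weights, 2 with the SD covariate, 141 with trend and robust options, 48 on the compared arrays and 4 to 1359 with an array left out. Between the compounds 1 member was called, and 2 above the 25th percentile, 2 above the median level, 5 with array weights, 2 with trend and robust options and 0 to 1 with an array left out; all probe sets called were 425, and 616 above the 25th percentile, 507 above the median level, 1187 with array weights, 525 with trend and robust options and 141 to 493 with an array left out. The cause of these shifts was not tested. Whether equal replicate numbers pair the arrays was not settled. Correlations of their deviations ran from -0.24 to 0.37, and were 0.14, 0.05 and 0.37 for Ac-GlcNAc and untreated. The replicate block gave 4, 0 and 1 called members in the 3 comparisons, as without it. Over all probe sets it gave 2207, 324 and 432 calls, against 1968, 79 and 425 without it. No named difference that was called changed sign in any setting. Since no member had more than 1 probe set of its own, the choice of probe set changed nothing.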

Other observations

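The proton pump that acidifies the lysosome was not called in any comparison. Of 15 listed subunits and accessory proteins 11 were measured. Their log2 differences ran from -0.26 to 0.48 with Ac-4-deoxy-GlcNAc against untreated, with a median of -0.0203, and from -0.04 to 0.43 with Ac-GlcNAc against untreated, with a median of 0.192 and 10 of 11 above 0, where 75.4% of the probe sets above the median of mean level lay above 0. Over all probe sets 47.3% lay above 0 in the Ac-GlcNAc comparison. ATP6V0A1, among the 10, had group means of 4.14 to 4.39, below the median of mean level (6.63). ATP6V1D was the highest in both comparisons, and ATP6V1A the lowest with Ac-4-deoxy-GlcNAc. On untreated arrays ATP6V1D had 8.05, 7.14 and 7.84, replicate 2 being the lowest, and both treated groups overlapped with untreated (SE 0.18). Other scalings were not tried for the pump genes. Of the 11, 3 (27.3%) and 4 (36.4%) had an unadjusted p below 0.05, beside 31.2% and 26.4% of all probe sets. The lowest adjusted p values in limma were 0.0591 and 0.133.

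Genes that tag and sort hydrolases by mannose phosphate (GNPTAB, GNPTG, NAGPA and M6PR measured, 4 of 6 listed) were not called either. They differed from untreated by -0.15 to 0.28 with Ac-4-deoxy-GlcNAc and by -0.06 to 0.19 with Ac-GlcNAc, and between the compounds by -0.09 to 0.08, with all 4 intervals inside a 1.5-fold change in each comparison. Of 9 genes of lysosomal nutrient sensing 6 were measured and 0 called, with differences of -0.20 to 0.23 from untreated. Over all probe sets 11.0%, 0.442% and 2.38% were called in the 3 comparisons, so 0 calls in groups this small say little. These 3 groups were drawn from the further list after its values were seen, and no test was made of them as groups.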
